A study of Mus musculus with 568 samples.

Results

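Primordial germ cell-like cells (PGCLCs) sorted for a GFP reporter on the X chromosome that is subject to silencing (XGFP+), which marks cells with both X chromosomes active, were compared by bulk RNA sequencing with the epiblast-like cells (EpiLCs) from which they were induced. The comparison holds 8 of the 16 bulk libraries in a series of 568 samples, 4 of XGFP+ PGCLCs and 4 of EpiLCs, and all 16281 genes with a mean normalised count above 10 over the 16 libraries, of 16335 in the table. Just outside this limit lay *Ttc22* (mean 9.98), *Gm13668* (9.99) and *Gm15785* (9.99), and just inside it *Tex16* (10.0), *Gm12944* (10.0) and *Adad1* (10.0).

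All libraries came from XRep, a female hybrid mouse embryonic stem cell line whose strains are labelled 129S1/SvImJ and CAST/EiJ, with one musculus (Xmus) and one castaneus (Xcas) X chromosome. Every cell of both groups carried a truncated *Tsix* on Xmus, which directs X-inactivation to Xmus, GFP (Xmus) and tdTomato (Xcas) reporters in *Hprt*, rtTA at *Rosa26* and piggyBac vectors that express *Prdm1* (Blimp1), *Prdm14* and *Tfap2c* under doxycycline. EpiLCs were made from ESCs with bFGF and activin A on fibronectin over 2 intervals of 48 h, were never given doxycycline and were not sorted. XGFP+ PGCLCs were grown from EpiLCs for 5 days in aggregates of 2000 cells with 1.5 µg/ml doxycycline and no cytokines, and were then sorted for the surface markers SSEA1 and CD61 and for GFP. Doxycycline with its vectors, the medium with its added factors, the aggregate, the time in culture and the sort therefore differ together between the groups, and their parts cannot be told apart. The study's text describes the 4 libraries of a group as technical pairs of 2 clones. The labels number the libraries only, so all 4 were treated as separate samples, and p-values that rest partly on technical spread may be too small.

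In the mouse embryo, primordial germ cells are set aside from the epiblast by PRDM1, PRDM14 and TFAP2C, which silence somatic genes, bring back much of the pluripotency network and start the removal of DNA methylation. EpiLCs stand for the epiblast just before this step, with primed and formative genes on and with high levels of the de novo DNA methyltransferases. In female cells one X chromosome is silenced by the long non-coding RNA *Xist* as the epiblast differentiates, and it is reactivated later in the germ line.

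The 8 libraries held 29.8 M to 46.5 M reads on genes (M, 1000000), and the genes ranked alike within each group, with Spearman's rho of 0.993 to 0.996 among XGFP+ PGCLCs and 0.992 to 0.995 among EpiLCs, taken across genes. XGFP+ libraries gave 15.13% to 17.43% of their reads to mitochondrial genes and EpiLCs 10.72% to 12.02%, with no overlap. Most of this was the mitochondrial ribosomal RNA *mt-Rnr2*, with 12.8% to 14.8% in XGFP+ libraries and 9.4% to 10.8% in EpiLCs. All measured members of the immediate-early and heat shock list (10 of 10, among them *Fos*, *Atf3* and *Btg2*) were lower in XGFP+ PGCLCs. At the same threshold, given below, 29.5% of all genes were lower. The summed normalised count of the list was 3669 to 4061 against 11020.3 to 16162 in EpiLCs. The part of the immediate-early shift in the results was not tested. With reads recovered from the normalised counts, edgeR called 4774 genes higher and 4716 lower, and 4772 and 4705 without mitochondrial genes.

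XGFP+ PGCLCs differed from EpiLCs in most genes at the threshold used, a Benjamini-Hochberg false discovery rate (FDR) below 0.001 in limma across all genes. They had 4529 genes higher (27.8% of those tested) and 4805 lower (29.5%) than EpiLCs, so 57.3% of all genes were called. Of these, 2361 (14.5%) were higher and 2586 (15.9%) lower by more than 2-fold. All 4 XGFP+ libraries lay above all 4 EpiLC libraries for 5499 genes (33.8%) and below them for 5877 (36.1%), and the median log2 difference over all genes was −0.004. Differences are given throughout as log2(normalised count + 1) of XGFP+ PGCLCs minus EpiLCs, and a level is the mean normalised count ± SD over 4 libraries. Where 4 values stand against another 4, XGFP+ PGCLCs come first. In bulk RNA, fewer cells with a transcript and less of it per cell cannot be told apart.

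**Figure D1:**
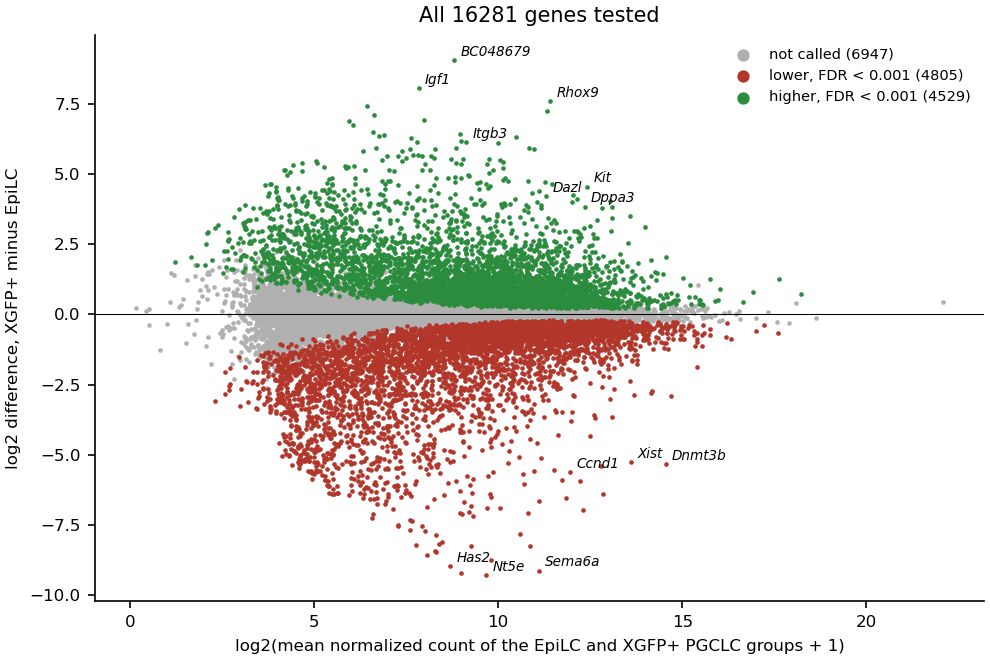
Log2 difference between XGFP+ PGCLCs and EpiLCs (vertical axis) against the log2 mean normalised count of both groups (horizontal axis) for the 16281 genes tested, coloured by call at an FDR below 0.001. Of the genes, 4529 are called higher and 4805 lower, and labels mark some of those named in the text, such as *BC048679* (9.04) and *Nt5e* (−9.29).

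The factors of germ cell specification stood far above EpiLCs. *Prdm1*, the repressor of somatic genes, had normalised counts of 3794, 4041, 4109 and 4106 in the 4 XGFP+ libraries and 363, 287, 238 and 153 in the EpiLC libraries (log2 difference 4.01, SE 0.18, FDR 7.28e-13). *Prdm14*, which promotes naive pluripotency and represses de novo methylation, had 3531, 3583, 3019 and 3511 against 334, 99.9, 242 and 29.6 (log2 difference 4.76, SE 0.45, FDR 2.18e-08). *Tfap2c* rose from 185 ± 39.7 to 4799 ± 468 (log2 difference 4.70, SE 0.12, FDR 5.19e-16). No XGFP+ library of these 3 genes overlapped an EpiLC library, and the XGFP+ libraries lay close together while EpiLC *Prdm14* spread over more than a decade. Reads of the vectors and of the endogenous genes were not separated in these counts, and the rise includes the vectors' own transcripts where these were counted.

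10 of 11 early germ cell genes rose and 1 fell (median 2.73), against 27.8% higher and 29.5% lower over all genes. The list holds *Itgb3* and *Fut9*, whose products were used in the sort, and without them 8 of 9 rose and 1 fell (median 2.73). *Nanos3*, an RNA-binding protein that keeps early germ cells alive, had 662, 655, 544 and 572 in XGFP+ PGCLCs and 9.51, 15.8, 3.97 and 10.9 in EpiLCs (log2 difference 5.91, SE 0.36, FDR 4.08e-11). *Dppa3* (Stella), a maternal-effect chromatin regulator and classic germ cell marker, had 9843, 9684, 9520.2 and 9864 against 877, 848, 538 and 527 (log2 difference 3.84, SE 0.14, FDR 6.38e-14). Both genes separated the groups fully. *Kit*, the receptor for stem cell factor that migrating germ cells need, had 9996, 10019, 10403 and 11739 against 498, 506, 372 and 425 (log2 difference 4.55, SE 0.10, FDR 6.00e-17), and *Dnd1*, the partner of NANOS proteins, rose to 2366 ± 314 from 426 ± 36.3 (log2 difference 2.46, SE 0.10, FDR 2.79e-13). *Alpl*, the tissue-nonspecific alkaline phosphatase long used to stain germ cells, and *Ifitm1* differed by 2.73 and 2.98, and *Ifitm3* by 0.73. Of the sort marker genes in the list, *Itgb3* encodes CD61 (15.4 ± 5.17 to 1103 ± 132.2, log2 difference 6.13, SE 0.19, FDR 6.99e-15) and *Fut9* makes the SSEA1 epitope (579.8 ± 60.7 to 2769 ± 1016, log2 difference 2.19, SE 0.20, FDR 1.16e-08). Cells were sorted for these products, so this rise and the gate cannot be told apart. *Prmt5*, an arginine methyltransferase that works with PRDM1, was the only member to fall (6882 ± 238 to 4673 ± 211, log2 difference −0.56, SE 0.05, FDR 6.07e-09).

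**Figure D2:**
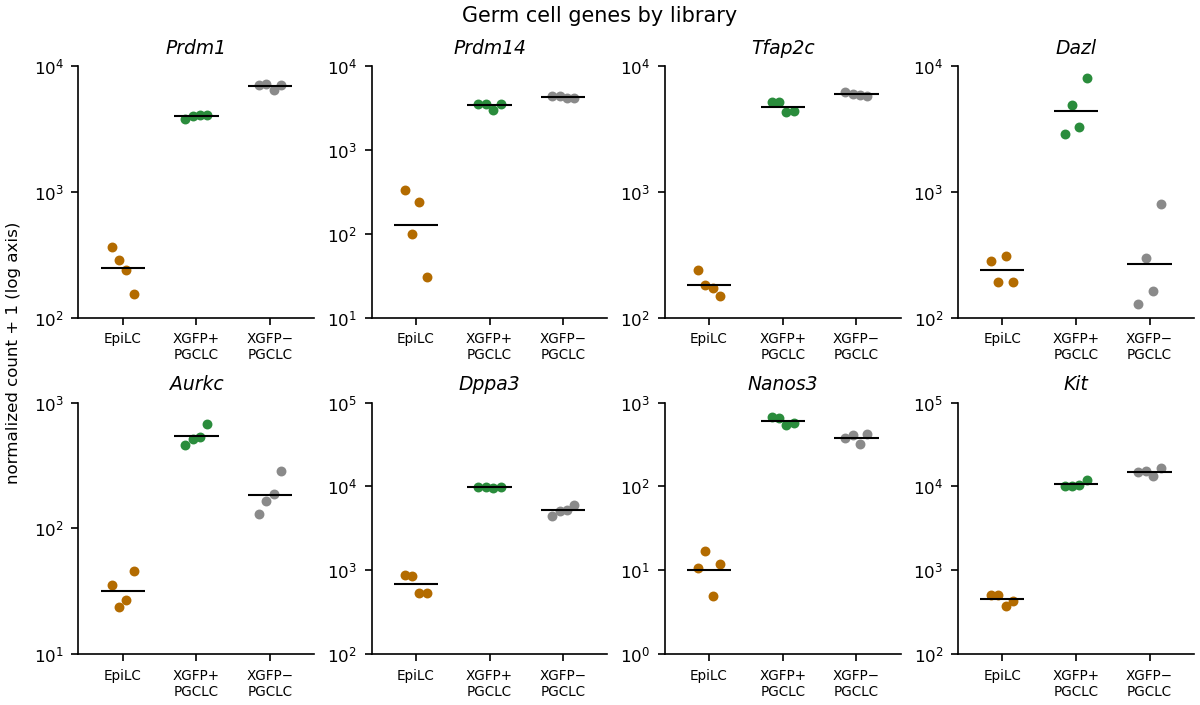
Normalised count + 1 (log axis) of 8 germ cell genes in the 4 libraries each of EpiLCs, XGFP+ PGCLCs and XGFP− PGCLCs (points), with the mean of log values as a bar. Every XGFP+ point lies above every EpiLC point, and *Dazl* has the widest spread among XGFP+ libraries, 2875 to 8074.

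Germ line genes of later function did not move as a block. Their promoters are printed first for *Dazl*, which rose, *Sycp3*, which fell, and *Ddx4* and *Hormad1*, which were not called, because germ line promoters are known targets of DNA methylation and of the PRC1.6 complex, whose subunits MGA/MAX and E2F6 recognise an E-box and an E2F site. Each runs 5′ to 3′ along the gene from 250 bases before to 50 after the start, from RefSeq on GRCm38.p6. Capitals mark CACGTG (E-box) and TCCCGC or its complement GCGGGA (E2F6-type), which do not overlap each other.
*Dazl* (chr17:50293571-50293870, minus strand): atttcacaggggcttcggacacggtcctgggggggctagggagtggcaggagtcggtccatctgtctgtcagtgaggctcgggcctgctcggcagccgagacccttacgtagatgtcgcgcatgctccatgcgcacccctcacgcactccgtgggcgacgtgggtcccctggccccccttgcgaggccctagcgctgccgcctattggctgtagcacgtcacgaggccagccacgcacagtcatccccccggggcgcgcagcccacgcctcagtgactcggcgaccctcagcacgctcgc
*Sycp3* (chr10:88459337-88459636, plus strand): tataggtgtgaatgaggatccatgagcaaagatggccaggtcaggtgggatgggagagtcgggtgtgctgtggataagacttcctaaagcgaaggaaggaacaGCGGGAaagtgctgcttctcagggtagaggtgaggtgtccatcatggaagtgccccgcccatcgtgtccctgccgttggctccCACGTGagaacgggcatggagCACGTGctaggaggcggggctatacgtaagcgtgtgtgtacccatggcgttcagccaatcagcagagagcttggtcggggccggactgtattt
*Ddx4* (chr13:112652261-112652560, minus strand): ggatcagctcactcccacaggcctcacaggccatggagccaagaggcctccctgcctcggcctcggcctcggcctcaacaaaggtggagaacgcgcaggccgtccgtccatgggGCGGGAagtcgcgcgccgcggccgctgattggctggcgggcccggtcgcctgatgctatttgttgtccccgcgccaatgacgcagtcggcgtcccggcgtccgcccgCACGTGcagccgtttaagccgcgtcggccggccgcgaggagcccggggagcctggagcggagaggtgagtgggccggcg
*Hormad1* (chr3:95559427-95559726, plus strand): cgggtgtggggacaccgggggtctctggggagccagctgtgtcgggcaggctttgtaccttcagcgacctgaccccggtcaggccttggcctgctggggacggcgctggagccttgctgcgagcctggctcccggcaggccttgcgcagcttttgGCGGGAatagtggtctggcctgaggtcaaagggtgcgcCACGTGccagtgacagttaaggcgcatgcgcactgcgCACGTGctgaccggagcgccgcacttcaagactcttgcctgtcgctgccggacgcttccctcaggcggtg

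The *Dazl* promoter holds 28 CpGs and neither motif, *Sycp3* 15 CpGs with 2 E-boxes and 1 E2F6-type site, *Ddx4* 38 CpGs with 1 of each, and *Hormad1* 24 CpGs with 2 E-boxes and 1 E2F6-type site. Over the 14201 promoters of tested genes that the table holds (11120 of 16281 genes), 9.77% have CACGTG, searched once as it reads alike on both strands, and 34.6% have TCCCGC on either strand. Of 44 measured members of the 3 germ line lists described next, 41 had a promoter, counted at the first listed start, and 14 of these (34.1%) have CACGTG and 19 (46.3%) TCCCGC. By call, CACGTG stands in 3 of 14 promoters of genes that rose, 5 of 8 of genes that fell and 6 of 19 of genes not called. TCCCGC stands in 4 of 14, 4 of 8 and 11 of 19. Both motifs together stand in 8 of the 41, by call in 1 of 14, 3 of 8 and 4 of 19. The printed promoters therefore do not represent the lists. Over the 4369 and 4460 promoters of all genes called higher and lower, 10.9% and 9.1% have CACGTG and 35.6% and 35.2% TCCCGC. These and the shares over 14201 promoters count every listed start, unlike the germ line counts. These are descriptions of letters in short windows and say nothing of binding.

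Among RNA-binding and transposon defence genes, 10 of 16 rose, 3 fell and 3 were not called (median 1.46), against 27.8% higher and 29.5% lower over all genes. *Dazl*, the RNA-binding protein that licenses germ cells for sexual differentiation, had 2875, 4941, 3276 and 8074 in XGFP+ PGCLCs and 281, 191, 309 and 191 in EpiLCs (log2 difference 4.21, SE 0.42, FDR 3.68e-08). Its groups did not overlap, but XGFP+ library 4 held almost 3 times the count of library 1. *Stk31* rose from 227 ± 25.5 to 1792 ± 307 (log2 difference 2.97, SE 0.17, FDR 1.27e-11) and *Rnf17*, a Tudor protein of germ granules, from 1313 ± 133.04 to 5947 ± 789 (log2 difference 2.17, SE 0.15, FDR 2.94e-10). *Asz1*, of the piRNA pathway, reached only 46.7 ± 24.6 from 6.34 ± 3.84 (log2 difference 2.73, SE 0.64, FDR 8.11e-04). *Mael*, *Tdrd1* and *Piwil4*, all of the piRNA pathway that guards the later male germ line, went the other way. *Mael* had 179.6, 175, 203 and 167 against 584, 382, 584 and 325 in EpiLCs (log2 difference −1.32, SE 0.25, FDR 1.06e-04), with no overlap, and *Tdrd1* and *Piwil4* differed by −2.12 and −3.02. *Ddx4* (Vasa), the RNA helicase of germ granules, had 429, 471, 429.8 and 513 in XGFP+ PGCLCs and 494, 614, 509.7 and 511 in EpiLCs, and the libraries overlap (log2 difference −0.21, SE 0.15, FDR 0.234). The call of *Asz1* was lost without any 1 of 6 libraries (EpiLC library 1, 2 or 4, or XGFP+ library 1, 2 or 4), with an FDR of at most 0.00414. *Mov10l1* (difference −0.21, FDR 0.352) and *Tex19.1* (0.54, FDR 0.0362) were not called either.

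Meiosis genes were spread about 0: 4 of 20 measured rose, 4 fell and 12 were not called (median −0.04), and *Stra8* was not analysed here. As a set they moved no more often than all genes, of which 27.8% were higher and 29.5% lower (median −0.004). *Aurkc*, a meiotic kinase of the chromosomal passenger complex, had 459, 512, 529 and 677 in XGFP+ PGCLCs and 34.1, 22.7, 25.8 and 44.4 in EpiLCs (log2 difference 4.09, SE 0.25, FDR 3.90e-11), every XGFP+ library far above every EpiLC library. The meiotic cohesin genes *Stag3* (945 ± 271 to 2378 ± 380.1, difference 1.37) and *Rec8* (difference 0.66, with an FDR of 0.00124 in a fit of the 8 libraries alone) and the recombination gene *Msh5* (1.07) rose by less. *Meioc*, which germ cells need to stay in meiotic prophase, fell from 1373, 1371, 1350.2 and 1189 to 120.6, 140.2, 64.1 and 114.6 (log2 difference −3.63, SE 0.24, FDR 1.25e-10). *Sycp3* and *Sycp1*, which build the axis and the central region of the synaptonemal complex, fell by 0.73 and 1.37 on the log2 scale, *Sycp3* from 887 ± 99.98 to 534 ± 39.04 (FDR 3.79e-04). *Hormad1*, which marks unsynapsed axes, had 702, 924, 583 and 910.0 in XGFP+ PGCLCs and 1629, 1117, 1364 and 579.7 in EpiLCs, overlapping (log2 difference −0.52, SE 0.32, FDR 0.156). The calls of *Sycp3* and *Sycp1* lie near the threshold. That of *Sycp3* was lost without EpiLC library 1, 2 or 3 or XGFP+ library 1 or 3 (FDR up to 0.00182), that of *Sycp1* without EpiLC library 2 or 3 or XGFP+ library 1 or 4 (up to 0.00308), and that of *Msh5* without library 4 of either group (0.00103). *Prdm9*, *Dmc1*, *Syce1* and *Msh4* lay within 0.5 of 0 and were not called. The call of *Sycp1* also ended with the replicate number as a block (FDR 0.00109), after quantile normalisation (0.0029) and in a fit of the 8 libraries alone, where its FDR rounded to 0.001.

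Of a further 8 measured genes known for promoter methylation in somatic cells, 2 rose (*Sohlh2* and *Zfp42*, which also stands among the naive genes below), 1 fell and 5 were not called. The shares over all genes were 27.8% higher and 29.5% lower. *Sohlh2*, a transcription factor of later germ cell differentiation, had 943, 835, 812 and 914 against 403, 327, 345 and 259.7 (log2 difference 1.40, SE 0.28, FDR 1.97e-04), and its FDR was 0.00106 without EpiLC library 4. *Rpl10l*, a retrogene for a ribosomal protein used in the testis whose reads may be shared with its parent gene, had 589, 679.6, 633 and 714 in XGFP+ PGCLCs and 759.6, 508, 1007 and 589.5 in EpiLCs, overlapping (difference −0.09, FDR 0.785). *Slc25a31*, *Hsf2bp*, *Brdt* and *Dpep3* were not called, and *Taf7l*, a germ cell TFIID subunit on the X chromosome, fell from 78.9 ± 25.3 to 14.3 ± 4.87.

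XGFP− PGCLCs were sorted from the same kind of aggregate and were compared with XGFP+ PGCLCs in the same model, where 12.5% of all genes were higher and 11.3% lower. XGFP+ PGCLCs were higher for 9 of 16 RNA-binding and defence genes, 7 of 20 meiosis genes and 8 of 8 other germ line genes, and lower for 1, 2 and 0 of them. *Hormad1* had a level of 1173 ± 447 in EpiLCs, 779.6 ± 166 in XGFP+ PGCLCs and 33.6 ± 18.04 in XGFP− PGCLCs (XGFP+ minus XGFP− 4.63, FDR 3.36e-09). *Rpl10l* had 716 ± 221, 654 ± 54.3 and 44.5 ± 30.2 in the same order (4.03, FDR 2.41e-09), and *Ddx4* 532 ± 55.1, 461 ± 40.1 and 224 ± 53.7 (1.06, FDR 1.88e-05). *Dazl* was 348 ± 312 in XGFP− PGCLCs (4.05, FDR 3.39e-07). *Kit* was lower in XGFP+ than in XGFP− cells (−0.51, FDR 2.17e-04), *Dppa3* higher (0.91, FDR 4.26e-05), and neither *Nanos3* (0.67, FDR 0.132) nor the 3 vector-driven factors passed this threshold. The study itself, with DESeq2 at an FDR below 0.001, reports these 3 factors as higher in XGFP− PGCLCs.

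**Figure D3:**
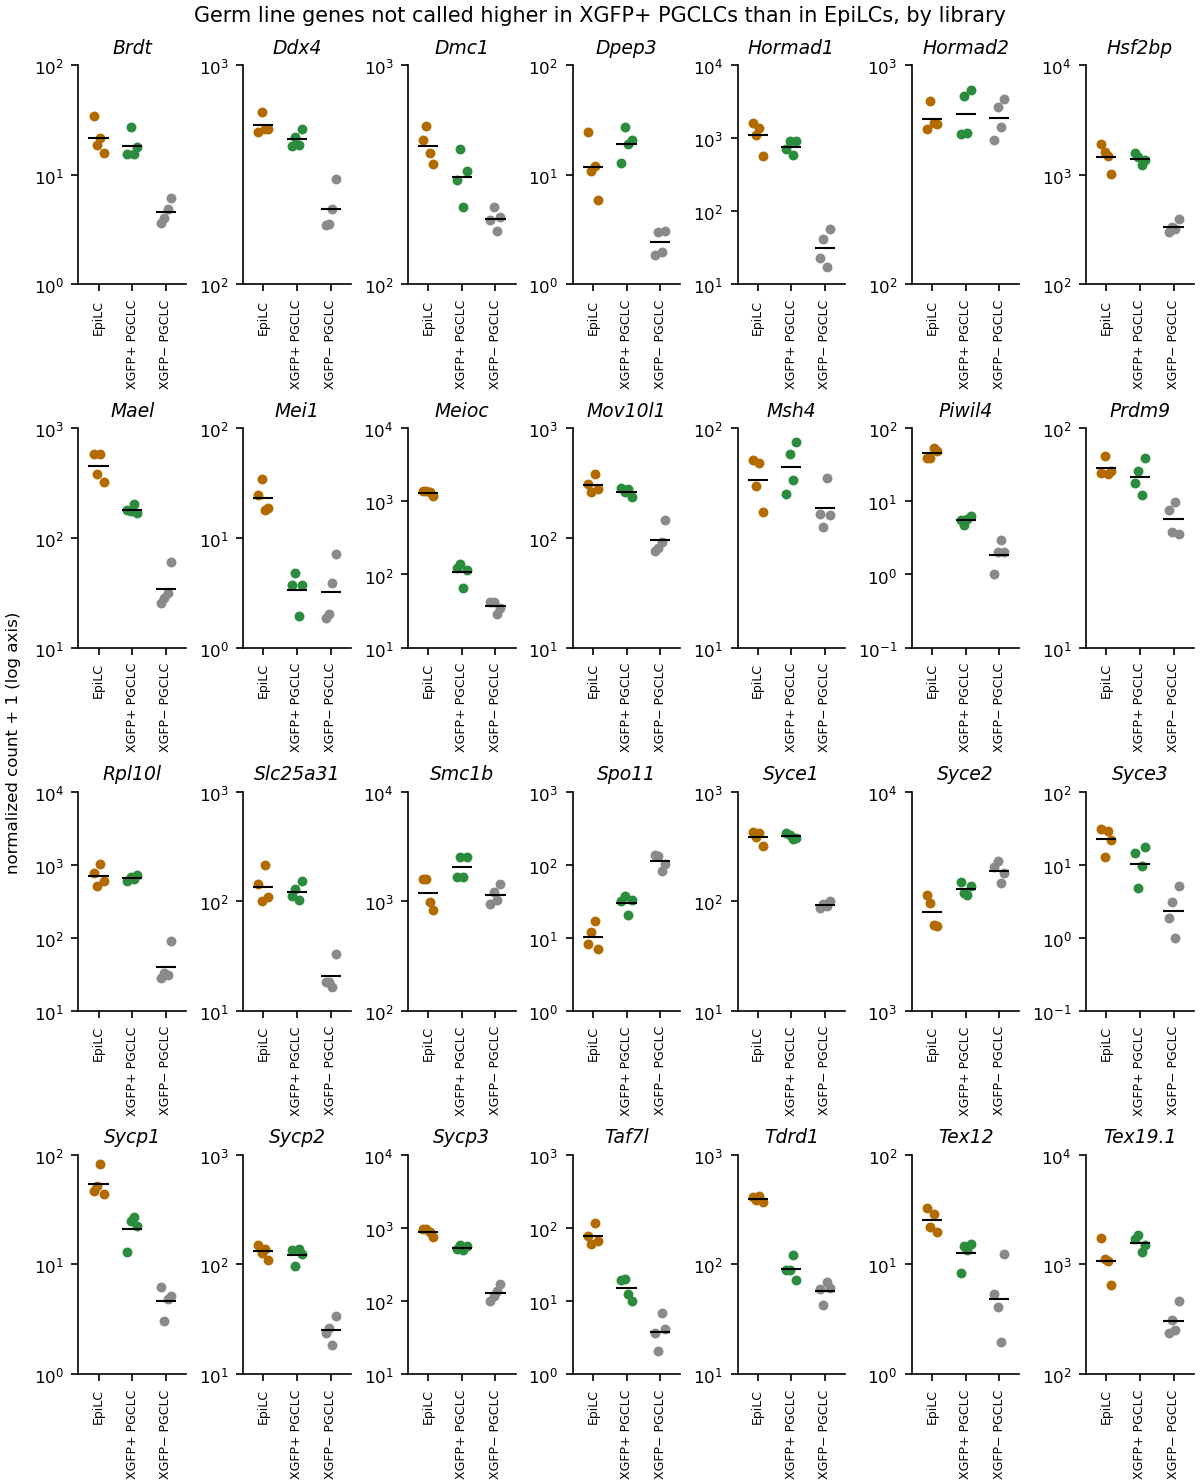
Normalised count + 1 (log axis) by library, with the mean of log values as a bar, for all 28 measured members of the 3 germ line lists that were not called higher in XGFP+ PGCLCs than in EpiLCs. Of these, 8 were called lower, *Meioc*, *Mael* and *Sycp3* among them, and 20 were not called.

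Pluripotency genes were read in 3 classes, each beside 27.8% higher and 29.5% lower over all genes. Of naive pluripotency genes, 11 of 13 rose, 1 fell and 1 was not called (median 2.53). *Tcl1*, a co-activator of AKT, had 3971, 3789, 4124 and 3910.3 against 168, 90.98, 53.6 and 21.7 (log2 difference 5.90, SE 0.38, FDR 7.90e-11), *Tfcp2l1* rose from 997 ± 298 to 15778 ± 1637 (log2 difference 4.03, SE 0.15, FDR 5.59e-14), and *Esrrb* from 1236 ± 566 to 16195 ± 634 (log2 difference 3.84, SE 0.22, FDR 1.46e-11). The X-linked *Nr0b1* rose by 3.15 and *Zfp42* (Rex1) by 2.98. These factors sustain the naive state of ESCs, and in ESC libraries *Tfcp2l1* was at 70883 ± 5098, above its XGFP+ level. *Fgf4*, the autocrine ligand of ESC differentiation, fell to 869.7, 1001, 346 and 518 from 3861, 2939, 2949 and 2135 (log2 difference −2.21, SE 0.25, FDR 2.05e-07), and *Gbx2* was not called (−0.07, FDR 0.78).

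Core pluripotency genes split 4 higher, 3 lower and 2 not called, against 27.8% higher and 29.5% lower over all genes. *Sox2* (2695 ± 786 to 10599.9 ± 567, difference 2.02) and *Nanog* (3690.3 ± 544 to 12047 ± 1114, 1.72) rose, and *Sall4* and *Dppa4* by 0.60 and 0.64. *Pou5f1* (Oct4) fell slightly, from 26089 ± 1319 to 17702 ± 1427 (log2 difference −0.56, SE 0.06, FDR 1.15e-07). *Lin28a*, the inhibitor of let-7 processing, fell from 20310.0 ± 999 to 3974 ± 660.0 (log2 difference −2.37, SE 0.10, FDR 5.58e-13) and *Tdgf1*, the Nodal co-receptor, by 2.20 on the log2 scale.

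Every measured formative or primed epiblast gene fell (13 of 13, median −4.38), all by more than 2-fold. Over all genes 29.5% were lower, and 15.9% by more than 2-fold. *Wnt8a* had 6.35, 2.50, 2.87 and 1.79 in XGFP+ PGCLCs and 1326, 1825, 1634 and 2308 in EpiLCs (log2 difference −8.73, SE 0.42, FDR 1.51e-12). *Fgf15* fell from 1214 ± 164 to 11.3 ± 7.51 (difference −6.83) and *Sall2* from 3964 ± 755 to 81.3 ± 12.2 (−5.58). The smallest fall in the list was that of *Lef1* (−1.14). *Otx2* and *Fgf5*, best known of the list and named here after their values were seen, differed by −3.74 and −4.45. The summed count of the list was 3360 to 4767 in XGFP+ PGCLCs and 69120 to 80461 in EpiLCs.

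Markers of other lineages that aggregates can hold were read from 4 lists, beside 27.8% higher and 29.5% lower over all genes. Of 13 primitive streak and mesoderm genes, 10 were measured, 6 fell and 2 rose, and their summed count was 786 to 924 in XGFP+ PGCLCs and 3491 to 7806 in EpiLCs. *T* (brachyury) had 5.44, 0, 4.79 and 1.79 in XGFP+ PGCLCs against 452, 783, 884 and 2729 in EpiLCs (log2 difference −8.24, SE 0.56, FDR 2.03e-10), and EpiLC library 4 held about 3 times the next highest count. *Msx2*, a BMP target, rose to 69.7 ± 18.7 from 9.90 ± 5.41 (2.81, with an FDR of 0.00107 without EpiLC library 1). Of 9 endoderm genes, 4 were measured (1 rose, 2 fell, summed count 62.7 to 87.6 against 156 to 201), of 10 trophoblast genes 7 (2 rose, 3 fell, 874 to 989.7 against 2494 to 6744) and of 7 neural genes 5 (2 rose, 2 fell, 1490.0 to 1579.6 against 9452 to 17413). No measured marker of these 4 lists was at 0 in all 4 XGFP+ libraries, and *T* was at 0 in 1 of them. *Gata2*, of trophoblast, (495, 448, 606 and 365 against 6.34, 4.94, 11.9 and 12.8, log2 difference 5.65, SE 0.28, FDR 2.34e-12) and *Pax6* (548, 546, 598 and 477 against 45.1, 25.7, 22.9 and 11.8, log2 difference 4.45, SE 0.29, FDR 1.32e-10) were among the 7 that rose, with *Hnf4a* (3.46), *Hes5* (3.06), *Plet1* (2.02) and *Cdx1* (0.99, whose call was lost without any 1 EpiLC library, without XGFP+ library 2 or 3, and in edgeR and DESeq2), while *Krt8* fell by 5.29 on the log2 scale and *Sox11* from 1165 ± 124.8 to 9.59 ± 5.90. The part of other cell types in the results was not tested.

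**Figure D4:**
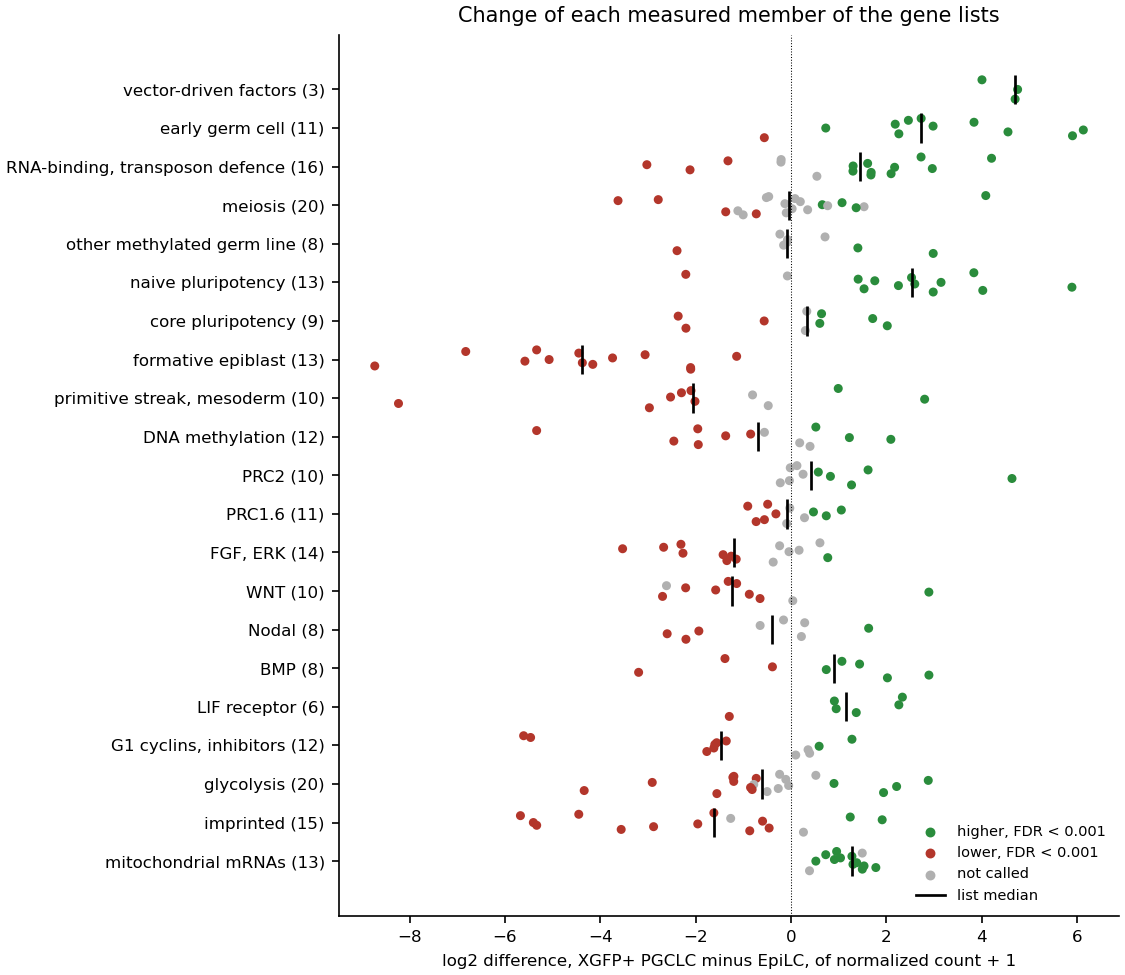
Log2 difference between XGFP+ PGCLCs and EpiLCs for each measured member (point) of 21 gene lists, coloured by call at an FDR below 0.001, with the number measured in brackets and the list median as a bar. All formative epiblast genes lie left of 0, 11 of 13 naive genes lie right of it, and meiosis genes straddle it.

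Of genes that write, maintain or remove DNA methylation, 6 of 12 genes fell, 3 rose and 3 were not called. Over all genes 29.5% were lower and 27.8% higher. *Dnmt3b* had 1179.8, 1379, 907 and 1224 in XGFP+ PGCLCs and 49201, 43335, 49490.1 and 45921 in EpiLCs (log2 difference −5.34, SE 0.13, FDR 4.42e-16). *Dnmt3a*, the other de novo enzyme, fell from 8516 ± 1430.0 to 2176 ± 186 (log2 difference −1.96, SE 0.10, FDR 2.96e-12) and *Uhrf1*, which brings DNMT1 to replicated DNA, from 12897 ± 540.3 to 3368 ± 440.0 (log2 difference −1.95, SE 0.09, FDR 7.89e-13). *Dnmt1* itself rose (15747 ± 370.4 to 22627 ± 1134, log2 difference 0.52, SE 0.05, FDR 1.70e-08). Among the TET dioxygenases that oxidise 5-methylcytosine, *Tet1* rose by 1.23 and *Tet2* from 534 ± 192 to 2237 ± 589, and *Tet3* fell by 2.46 on the log2 scale. *Dnmt3l*, the cofactor of de novo methylation, had 3560.3, 2351, 2934 and 1935 in XGFP+ PGCLCs and 5000.4, 3638, 4454 and 2751 in EpiLCs, overlapping (log2 difference −0.56, SE 0.19, FDR 0.0138), and *Zfp57*, which guards imprints, was not called (0.40, FDR 0.045). Both were higher than in XGFP− PGCLCs, by 3.27 (FDR 4.63e-10) and 4.71 (FDR 2.31e-12). No methylation was measured.

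Among chromatin complexes, 5 of 10 PRC2 subunits, which deposit H3K27 methylation, rose and none fell at the threshold. *Phf19*, an accessory subunit that guides PRC2 to CpG islands, had 5472, 4829, 6163 and 5253 against 281, 260.1, 188 and 159 (log2 difference 4.64, SE 0.15, FDR 1.22e-14), and *Ezh1* and *Suz12* rose by 1.62 and 1.27. PRC1.6 subunits, the repressors of germ line promoters, split 3 higher and 5 lower of 11. *E2f6* was at −0.91 (FDR 2.39e-10), *Mga* at 0.47 and *Max* at 1.06. H3K9 enzymes split 4 and 4 of 10, and the demethylases *Kdm3b* and *Kdm3a* showed the largest rises (1.42 and 1.20). These counts stand beside 27.8% higher and 29.5% lower over all genes.

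Signalling readouts are given by pathway and are read against 27.8% higher and 29.5% lower over all genes. FGF and ERK targets and brakes fell in 8 of 14 cases and rose in 1, led by *Etv4* (3117 ± 116.5 to 270.2 ± 38.5, log2 difference −3.53, SE 0.19, FDR 8.91e-12) and *Dusp6* (6886 ± 1759 to 1364 ± 180.3, log2 difference −2.31, SE 0.14, FDR 3.14e-11). The X-linked ERK phosphatase *Dusp9* was not called (−0.24, FDR 0.068). WNT targets and brakes fell in 7 of 10 and rose in 1 (*Notum*, 2.89), with *Sp5* at −2.69 and *Axin2* at −1.32. In the Nodal list 3 of 8 fell, 1 rose and 4 were not called. Among those that fell was *Nodal* (5429 ± 775 to 1411 ± 65.3, −1.93), and the one that rose was *Lefty2* (1.63). Only EpiLCs were given bFGF and activin A, so the FGF, ERK and Nodal changes cannot be told apart from the change of medium. BMP pathway genes rose in 5 of 8 cases and fell in 3, with *Id3* from 131.3 ± 19.2 to 978 ± 72.1 (log2 difference 2.90, SE 0.12, FDR 2.77e-13) and *Smad6* by 2.02, while *Id2* fell by 3.20 on the log2 scale, and no BMP was added to the medium. LIF receptor genes rose in 5 of 6 cases, with *Il6st* (gp130) and *Lifr* up by 2.34 and 2.26, and *Stat3* was the member that fell (−1.29).

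Cyclins and cell cycle inhibitors split 2 higher, 7 lower and 3 not called. *Ccnd1*, cyclin D1, had 230.3, 262, 84.2 and 122.7 in XGFP+ PGCLCs and 8113, 7625, 7236 and 8139.9 in EpiLCs (log2 difference −5.61, SE 0.26, FDR 1.10e-12), *Ccnd2* had 9.07, 6.26, 3.83 and 4.48 against 219, 265, 298 and 419 (log2 difference −5.46, SE 0.36, FDR 1.33e-10), and *Ccnd3* went the other way (1520.2 ± 81.8 to 3689.6 ± 138.5, log2 difference 1.28, SE 0.05, FDR 3.02e-13). All 3 separated the groups without overlap. Cyclins E1 and E2 (*Ccne1*, *Ccne2*) fell by 1.36 and 1.56 on the log2 scale, and the inhibitor p21 (*Cdkn1a*) from 1822 ± 241 to 601 ± 74.5, whereas p27 (*Cdkn1b*) rose by 0.59. S phase genes fell in 10 of 16 cases, rose in 3 and were not called in 3 (median −0.34), with *Gins2* lowest (−1.66). G2 and mitosis genes split 5 higher, 4 lower and 7 not called (median −0.06), near the 27.8% and 29.5% over all genes.

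Glycolysis genes fell in 9 of 20 cases, rose in 4 and were not called in 7, against 29.5% lower and 27.8% higher over all genes. The lactate exporter *Slc16a3* fell from 10989 ± 939 to 650.2 ± 343 (log2 difference −4.34, SE 0.51, FDR 4.06e-07), and lactate dehydrogenase *Ldha* had 7545, 9526, 2353 and 7876 against 47804, 49846, 37322 and 47958 (log2 difference −2.91, SE 0.42, FDR 4.27e-06), XGFP+ library 3 lying lowest. Hexokinase 1 (*Hk1*) and the platelet-type phosphofructokinase (*Pfkp*) rose by 2.88 and 2.22. Nuclear genes of oxidative phosphorylation were higher in 12 and lower in 30 of 89, with a median of −0.13, beside 27.8% and 29.5% over all genes. The 13 mRNAs of the mitochondrial genome, a list added after the mitochondrial share was seen, were higher in 11 and lower in none (median 1.28). The mitochondrial share given above is mostly ribosomal RNA and is not a measure of these mRNAs. Nuclear copies of mitochondrial sequence can share their reads. ATF4 stress response genes fell in 7 of 10 cases, with *Phgdh*, of serine synthesis, at −2.22 and *Asns* as the member that rose (0.84).

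Cell shape and adhesion genes fell in 10 of 16 cases and rose in 5, against 29.5% lower and 27.8% higher over all genes. The actin-binding *Tagln* fell from 1186 ± 392 to 17.4 ± 8.27 (log2 difference −6.07, SE 0.40, FDR 1.32e-10), and *Vim* and *Zeb2* by 3.12 and 3.98 on the log2 scale. *Zeb1*, the paralogue of *Zeb2*, rose from 34.7 ± 15.6 to 879 ± 60.1 (log2 difference 4.73, SE 0.22, FDR 8.82e-13) and fibronectin (*Fn1*) from 3418 ± 762 to 29201 ± 5718 (log2 difference 3.10, SE 0.14, FDR 9.71e-13). Imprinted genes fell in 11 of 15 cases (median −1.62), with *Grb10* at −5.68, *Meg3* at −5.41 (13719 ± 1687 to 347 ± 148.6) and *Nnat* at −5.34, while *Igf2r* (1.91) and *H19* (1.24) rose. The allelic values used here cover chromosomes X and 13, and the parental expression of these genes was not analysed here.

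Outside the lists, the largest increase was *BC048679* (chr7:81494275-81498281, mm10), which had 774, 916, 882 and 981 in XGFP+ PGCLCs and 0, 0.99, 2.98 and 0 in EpiLCs. *Igf1* (chr10:87858265-87937042), the secreted insulin-like growth factor, had 405, 532, 429.8 and 449.6 against 3.17, 0.99, 0 and 0. Both were close to absent from EpiLCs, so their fitted differences (9.04 and 8.06) depend on the pseudocount. *Isl2* (3.07 ± 0.66 to 499 ± 107.9), a LIM homeobox gene of neurons, *Vsir* (10.8 ± 2.41 to 988 ± 92.7), an immune checkpoint receptor, and *Lrrc34* (38.7 ± 22.3 to 2820.5 ± 182) were also among the 12 largest increases. The largest decrease was *Nt5e* (chr9:88327197-88372092), the ecto-5′-nucleotidase CD73, with 0.91, 5.01, 0.96 and 0.90 against 1254, 1454, 1587 and 2219. *Sema6a*, a transmembrane semaphorin, fell from 4397 ± 337 to 7.47 ± 3.81 (log2 difference −9.13, SE 0.28, FDR 7.08e-15), *Has2*, a hyaluronan synthase, from 828 ± 130.1 to 0.92 ± 1.28, and *Kif1a*, an axonal kinesin, from 3745 ± 548 to 12.5 ± 6.10 (log2 difference −8.24, SE 0.32, FDR 9.90e-14), all among the 12 largest decreases. No library of the 2 groups overlapped for any of these genes, which the naming rule required.

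The X chromosome was read at 3 levels, the RNA of the X inactivation centre, the total output of X-linked genes and the shares of the 2 alleles. *Xist* had 791, 872, 386 and 622 in XGFP+ PGCLCs and 21601, 27459, 26462 and 21964 in EpiLCs (log2 difference −5.25, SE 0.18, FDR 2.70e-14), and was also lower than in XGFP− PGCLCs (−3.38, FDR 1.74e-10). GFP on Xmus was part of the XGFP+ sort. Reads of *Xist* came nearly all from mus, with an allelic share of 0.887 to 0.962 in XGFP+ PGCLCs and 0.958 to 0.988 in EpiLCs. *Ftx* (−2.42), *Tsix* (−0.93) and *Rlim* (−0.44) were lower as well, *Rlim* with overlapping libraries, beside 29.5% lower over all genes. *Rlim* lost its call without EpiLC library 2 or 4 or XGFP+ library 1 or 3 (FDR up to 0.00196), and *Tsix* without EpiLC library 1 (0.00105). The mus share of *Rlim*, which encodes an activator of *Xist*, was 0.443 to 0.451 in XGFP+ PGCLCs and 0.030 to 0.048 in EpiLCs. The strand setting of the counting is not given in the sources used here, so reads of *Xist* and of its antisense partner *Tsix* may not be separated. Of 10 listed Rhox homeobox genes on the X chromosome, active in germ cells and placenta, 4 were measured, and 3 of these rose. Over all genes 27.8% were higher, and of X-linked genes 197 of 706. *Rhox6* had 4803, 4779, 5519 and 5169.5 against 43.6, 41.5, 26.8 and 21.7 (log2 difference 7.26, SE 0.18, FDR 4.42e-16), *Rhox9* had 5128, 5347, 6007 and 5244 against 41.98, 41.5, 29.8 and 9.87 (log2 difference 7.60, SE 0.29, FDR 8.47e-14) and *Rhox5* rose by 2.62. *Rhox13* was not called (log2 difference −1.21, FDR 0.00199), and without XGFP+ library 2 it was called lower (−1.47, FDR 3.70e-04). Members of this cluster are close copies, and reads shared among them could be split or dropped by the counting.

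Of 706 X-linked genes tested, 197 were higher and 197 lower in XGFP+ PGCLCs than in EpiLCs, with a median difference of 0.05, beside 27.8% and 29.5% over all genes. The X chromosome took 5.17%, 5.42%, 4.93% and 5.17% of the normalised counts of autosomes and X in the 4 XGFP+ libraries and 4.65%, 4.89%, 4.62% and 4.67% in EpiLCs. The XGFP+ libraries all lay higher (5.17% ± 0.20 against 4.71% ± 0.12, SD, n = 4 each, exact two-sided permutation test, p = 0.0286, which is the smallest this design allows, and 0.0381 after adjustment over 4 such tests). Cells were sorted for GFP from Xmus, so this test of the share is not independent of the sort. The median X-linked gene stood lower against the median autosomal gene in XGFP+ PGCLCs, at −1.24 ± 0.093 on the log2 scale against −0.84 ± 0.037 in EpiLCs (exact two-sided permutation test, n = 4 each, p = 0.0286, adjusted 0.0381), so share and median differed in sign. Without XGFP+ library 2, or without any 1 of the EpiLC libraries, the difference in share was 0.381 to 0.524 percentage points with p = 0.0571 by the same exact test. Over genes with a mean above 100 the difference in medians was −0.174 with p = 0.0571. XGFP− PGCLCs had a share of 3.96% ± 0.10 and a median of −1.74 ± 0.075.

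The 2 alleles were compared next. The allelic share is the fraction of allele-informative reads that came from mus, for a gene biallelic in ESCs when its mean share there lay above 0.3 and below 0.7. Of 232 such X-linked genes, 54.3% had all 4 XGFP+ shares above all 4 EpiLC shares, and 1 (0.431%) had them all below. On chromosome 13, read in the same way as an autosomal background, these counts were 34 (12.9%) and 32 (12.2%) of 263 genes. With a mean normalised count above 100 in ESCs, EpiLCs and XGFP+ PGCLCs, 78.2% of X-linked genes had all XGFP+ shares higher, none had them lower and the other 31 genes overlapped. On chromosome 13, 32 of 199 genes (16.1%) had all XGFP+ shares higher. Over these X-linked genes the median mus share was 0.42 in XGFP+ PGCLCs, 0.25 in EpiLCs, 0.468 in ESCs and 0.066 in XGFP− PGCLCs. The sort used GFP from Xmus, so a higher mus share is part of what defined the XGFP+ cells. The depth behind a share is unknown, since the shares come without read numbers.

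Multiplying each gene's normalised count by its share gives the part of its expression from either allele. Summed over the same X-linked genes, the mus part was 0.347 M ± 0.017 in XGFP+ PGCLCs and 0.199 M ± 0.012 in EpiLCs, a ratio of 1.74 (SD, n = 4, exact two-sided permutation test, p = 0.0286, adjusted 0.0381). Since cells were sorted for GFP from Xmus, this test of the mus part is not independent of the sort. The cas part was 0.404 M ± 0.005 and 0.409 M ± 0.016, a ratio of 0.987 (p = 0.5143 by the same exact test). The mus part of 71 genes was more than 2-fold higher and that of 10 genes more than 2-fold lower, while 20 and 24 genes moved as far in the cas part. In XGFP− PGCLCs the mus part was 0.152 M ± 0.014 and the cas part 0.44 M ± 0.009.

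The 3 genes with the largest gain of the mus share differed in their totals. *Zmym3*, a zinc finger protein, had mus shares of 0.504, 0.509, 0.483 and 0.528 in XGFP+ PGCLCs and 0.138, 0.175, 0.109 and 0.07 in EpiLCs, and its total rose from 682 ± 79.9 to 2908 ± 289 (log2 difference 2.09, SE 0.11, FDR 8.72e-12). *Firre* (6720401G13Rik), a long non-coding RNA, had shares of 0.396, 0.411, 0.38 and 0.375 in XGFP+ PGCLCs and 0.083, 0.047, 0.033 and 0.018 in EpiLCs and rose by 1.84. *Prps1*, phosphoribosyl pyrophosphate synthetase 1 of nucleotide synthesis, had shares of 0.543, 0.521, 0.466 and 0.558 in XGFP+ PGCLCs and 0.196, 0.19, 0.217 and 0.148 in EpiLCs while its total fell from 3469, 2973, 2994 and 2922 to 609, 587, 244 and 339 (log2 difference −2.89, SE 0.21, FDR 6.53e-10). Of the genes with a higher mus share in every library, 54 were called higher in total, 22 lower and 35 neither, beside 197 and 197 of the 706 X-linked genes tested.

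**Figure D5:**
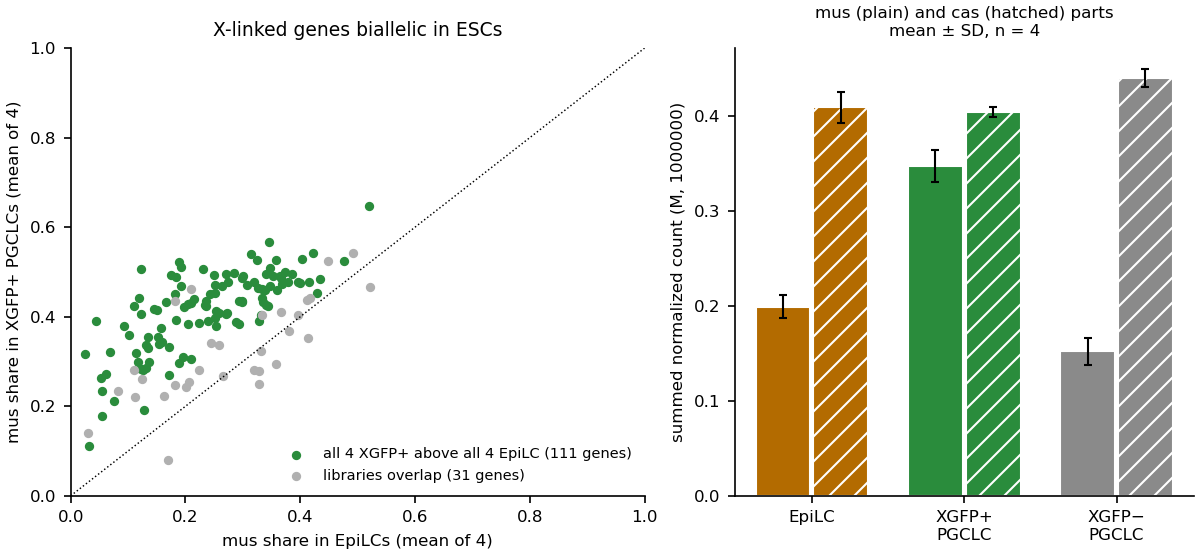
Left, mean mus share of X-linked genes biallelic in ESCs with a mean normalised count above 100, in XGFP+ PGCLCs (vertical axis) against EpiLCs (horizontal axis), with the line of equal shares. Right, the summed mus and cas parts of their normalised counts in M, 1000000 (bars, mean ± SD, n = 4): the mus part of XGFP+ PGCLCs is 1.74 times that of EpiLCs and the cas part 0.987 times.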

How the data were processed

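Bulk RNA of XRep cells (ESCs, EpiLCs, XGFP+ and XGFP− PGCLCs, 4 libraries each) was sequenced from stranded total RNA libraries. The authors aligned reads with STAR to mm10 with the SNP positions of the 129S1/SvImJ and CAST/EiJ genomes masked, counted them per gene with HTSeq 0.6.1 and divided the counts by DESeq2 size factors (version 1.16 in the submitters' processing notes). The deposited values are these normalised counts, a signal per gene, and, for chromosomes X and 13, the deposited fraction of allele-informative reads that came from mus. A deposited fraction of 0 can also stand for a gene without such reads. The strand setting of the counting is not given in the sources used here. 4 columns of the allelic table that hold no sample were not used.

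Differences were tested with limma (3.58.1, trend) on log2(normalised count + 1), with all 16 libraries in one model and genes with a mean above 10, at a Benjamini-Hochberg FDR below 0.001. A pseudocount understates the change of low genes. Normalised counts were whole multiples of one value per library within a tolerance of 0.01 (100% of values in each), so reads were recovered, rounded and tested with edgeR (4.0.16, quasi-likelihood, TMM) and DESeq2 (1.42.0) as alternatives, after all tools had been tested on simulated data. The simulation changed 200 of 16281 genes, far fewer than were called here. In it limma found 18% of 1.5-fold and 88% of 2-fold changes with 0 false calls, and DESeq2 made 2. A gene not called may therefore still have changed. Single values were compared by exact two-sided permutation tests of 4 against 4 libraries, which cannot go below 0.0286. Recovered reads on genes ranged from 29.8 M to 46.5 M per library, which is not the total sequenced. Coordinates are from GENCODE on mm10 and promoters from RefSeq on GRCm38.p6.

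Genes were named by rule: *Prdm1*, *Prdm14*, *Tfap2c*, *Dazl*, *Aurkc* and *Dppa3*, the 12 largest changes in each direction among called genes with a mean above 100 and no overlap, members of 31 lists (all for lists of at most 12 measured genes, otherwise the 4 largest changes each way and those not called), *Xist*, and the 3 largest gains of the mus share. Genes and lists were chosen with earlier results of these data known. The single-cell data of the series were not used here.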

Additional observations from a re-analysis of the deposited data

Results flagged for a closer look

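Among 304 groups of 4 values (XGFP+ PGCLCs or EpiLCs, for the genes named in the text and the X chromosome measures), 13 held a library far from the other 3, with a gap to its neighbour, as a share of the whole range, above Dixon's critical value at the 95% level. Chance flags about 1 in 20 groups, or 15.2 of 304. In EpiLCs these were *Cdkn1b* (699 in library 3), *Ddx4* (614 in library 2), *Id3* (160.0 in library 1), *Ldha* (37322 in library 3), *Meioc* (1189 in library 4), *Prps1* (3469 in library 1) and *Tet1* (9743 in library 4). In XGFP+ PGCLCs they were *Nt5e* (5.01 in library 2), *Prdm14* (3019 in library 3), *Rhox13* (21.28 in library 2), *Stat3* (220.15 in library 3) and *Tfcp2l1* (13355 in library 3). The median X-linked gene against the median autosomal gene was lowest in XGFP+ library 3 as well, at −1.372 on the log2 scale. XGFP+ library 3 gave 4 of the 6 values that stood apart in its group, and the difference in medians was −0.346 without it (exact two-sided permutation test, p = 0.0286 for 3 against 4 libraries).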

How the results depend on the processing

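The count of genes higher in XGFP+ PGCLCs than in EpiLCs was 4529 and that of genes lower 4805. Other pseudocounts (0.5 or 10), filters, normalisations, models and tools gave 4037 to 4934 higher and 4019 to 5261 lower, and an FDR below 0.05 gave 6035 and 6257. Asking also for more than 2-fold left 2361 and 2586. Without 1 library the counts were 4225 to 4307 higher and 4477 to 4588 lower. edgeR without mitochondrial genes, an alternative chosen after seeing the data, gave 4772 and 4705.

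Same-numbered XGFP+ and EpiLC libraries deviated from their group means with correlations across genes of 0.16, 0.124, 0.0114 and −0.0105, for numbers 1 to 4. The mean correlations with other numbers were −0.059, −0.0355, −0.00952 and 0.00945 in the same order. Numbers 1 and 2 correlated best with their own number, and 3 and 4 did not. Whether replicate numbers pair the samples was not tested. With the replicate number as a block, 4662 genes were higher and 4953 lower, and of the 150 genes named only *Sycp1* lost its call (FDR 0.00109).

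No named gene called in either fit changed direction under any alternative run. 10 genes lost their call under an alternative other than a changed threshold (*Asz1*, *Cdx1*, *Msh5*, *Msx2*, *Rec8*, *Rlim*, *Sohlh2*, *Sycp1*, *Sycp3* and *Tsix*), and *Dmc1*, *Dnmt3l*, *Rhox13*, *Tex19.1* and *Zfp57* passed at an FDR below 0.05. The direction of values past the threshold in neither fit was not followed.

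The difference in the X chromosome's share of counts, 0.463 percentage points, was 0.534 without *Xist* and 0.381 to 0.544 without 1 library, and p was 0.0571 without XGFP+ library 2 or any 1 of the EpiLC libraries. The difference in medians, −0.391, was −0.174 (p = 0.0571) over genes with a mean above 100, −0.405 without *Xist* and −0.413 to −0.346 without 1 library. The cause was not tested. The count of X-linked genes with a higher mus share stayed within 1.5 times its value under other windows and filters and without 1 library. The comparison with XGFP− PGCLCs was not refitted under the alternatives. The depth behind the allelic shares is unknown.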

Other observations

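Of 79 cytosolic ribosomal protein genes, 14 were higher in XGFP+ PGCLCs than in EpiLCs, 6 lower and 59 not called, with a median log2 difference of 0.10, beside 27.8% higher and 29.5% lower over all genes. The mus share of *Rhox9* was 0.246 to 0.295 in XGFP+ PGCLCs and 0.217 to 0.714 in EpiLCs, and that of *Dusp9* 0.245 to 0.365 and 0.096 to 0.134.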
